A study of Mus musculus with 64 samples.

Results

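The data described here are the surface-protein profiles of colon immune cells at week 0 and week 1 of T cell transfer colitis in SCID mice. All barcodes of the tables for these weeks were taken, which gave 29679 of the 131917 barcodes in the 9 SCID immune surface-protein tables. Of these, 16910 came from week 0 and 12769 from week 1. Each week was 1 pool of colon tissue from 3 animals, so no test between the weeks was possible, and the spread between animals of a week is unknown. Both pools carry the genotype SCID, the treatment CD45RBhi transfer and no anti-IL-12p40, and they differ in the time label (W0 or W1). The week 0 pool is read as the host mucosa before transfer, although it carries the transfer label too. Lamina propria cells were sorted as CD45+ and EpCAM-, the leukocyte gate, after staining with 11 TotalSeq antibodies, whose sequence tags are counted cell by cell. About 16000 cells a pool were loaded, and the week 0 table holds 910 barcodes more than that number.

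SCID mice make no mature T or B lymphocytes of their own but keep innate lymphoid cells, macrophages, monocytes, dendritic cells and neutrophils. Naive CD45RBhi T cells given to such a host divide, home to the gut and cause colitis over the following weeks. The gut macrophage pool is refilled by blood monocytes, which arrive with high Ly-6C and lose it as they take up CD64. At week 1 the transferred cells are still scarce, so the comparison asks how the host's own cells looked before and just after transfer.

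The week 0 library held 28372308 antibody counts and the week 1 library 12914066. Barcodes with at least 50 counts and outside the top 1% by total were kept, 16735 at week 0 and 12604 at week 1. Their median was 1090 counts per cell at week 0 (quartiles 591 and 1942.5) and 576.5 at week 1 (311 and 1053). The libraries shared 65 barcode sequences, 0.384% and 0.509% of each. Depth was therefore matched in 2 ways. In the fixed-depth form, each cell was thinned at random to 164 counts, which left 16135 and 11347 cells and left out 3.59% of week 0 and 9.97% of week 1 cells as too shallow. In the library-matched form, each week 0 count was kept with a chance of 52.89%, the ratio of the medians, so that all kept cells and the full dynamic range remain. A cell was called positive for a protein from its centred log ratio, the natural log of its count plus 1 minus the mean of that value over the 11 antibodies. A difference is called large here when the week 1 share was at least 1.5 times the week 0 share, or the reverse, and the exact 95% intervals did not overlap. Those intervals cover counting error only.

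T cell proteins were the clearest difference in the first week. At fixed depth CD3, the signalling part of the T cell receptor complex, was on 2.69% of cells at week 0 (interval 2.45 to 2.95, 434 cells) and on 9.11% at week 1 (8.59 to 9.66, 1034 cells). Ly-6G, the neutrophil marker, was on 0.731% (0.606 to 0.875) and then 1.72% (1.49 to 1.97). These were the 2 of 11 antibodies with a large difference (18.2%), with ratios of 3.39 for CD3 and 2.35 for Ly-6G. CD4, the helper T cell co-receptor that some myeloid and innate lymphoid cells also carry, was on 12.4% and 14.8% of cells.

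**Figure D1:**
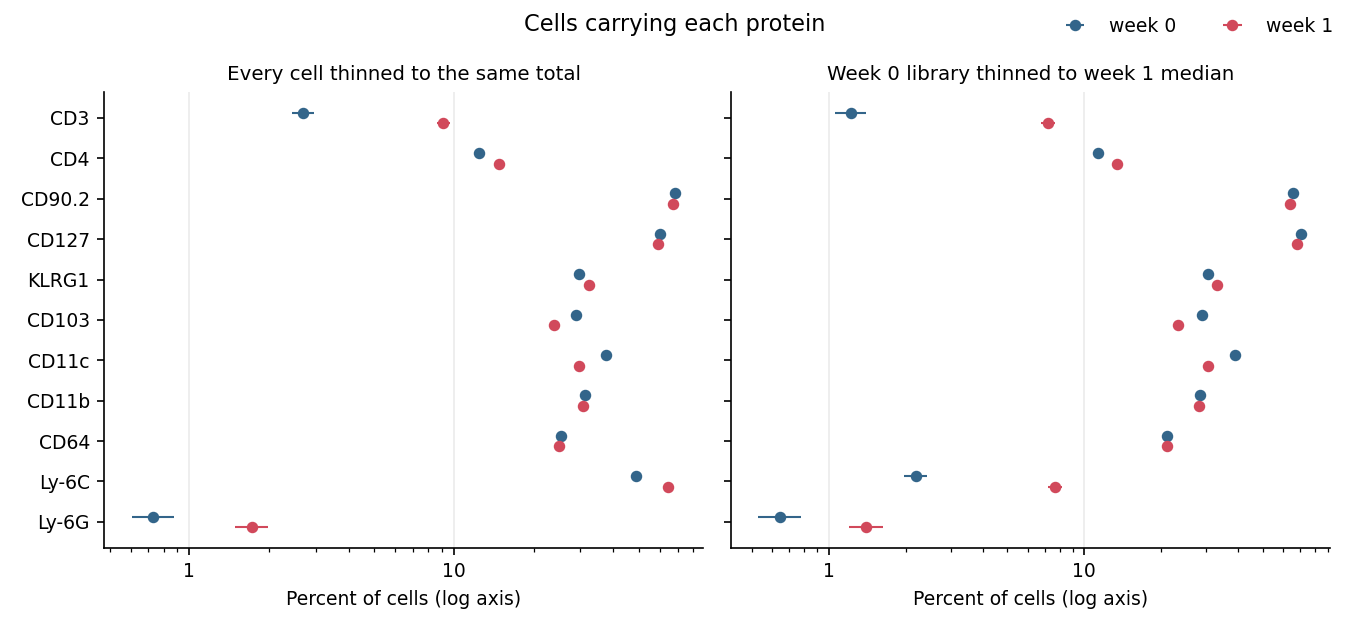
Percent of cells carrying each of the 11 proteins (log axis) at week 0 (blue) and week 1 (red), with every cell thinned to 164 counts on the left and the week 0 library thinned to the week 1 median on the right. Points are shares of 1 pool each and bars are exact 95% intervals for counting error. CD3 and Ly-6G are higher at week 1 in both panels. Ly-6C lies at 48.8% and 64.4% on the left, where its gate is merged, and at 2.19% and 7.69% on the right.

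The lymphoid proteins other than CD3 and CD4 differed little. CD90.2, the Thy-1 protein of T cells and innate lymphoid cells, was on 68.3% of cells at week 0 and 67.3% at week 1. CD127, the interleukin-7 receptor, was on 60.1% and 58.8%. KLRG1, an inhibitory lectin-like receptor of mature lymphocytes, was on 29.7% and 32.5%. The CD127 counts did not form separate low and high groups: Ashman's D, the distance between the fitted groups in units of their spread, was 1.92 at fixed depth and 1.53 in the deposited counts, both under the value of 2 used here as the limit. The CD127 shares in every form rest on these gates.

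Proteins of dendritic cells were on fewer cells at week 1. CD11c, an integrin of dendritic cells and gut macrophages, was on 37.6% of cells and then 29.8%, a ratio of 0.792. CD103, the integrin that binds epithelial E-cadherin, was on 28.9% and then 23.9%, a ratio of 0.825. Both ratios were under the size rule, although the intervals did not overlap. CD11b, a pan-myeloid integrin, was on 31.1% and 30.8%, and CD64, the high-affinity IgG receptor of macrophages, on 25.26% and 24.96%.

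Ly-6C, the protein of newly arrived monocytes, could be read only in the library-matched form. After thinning to 164 counts its background and its signal merged (Ashman's D 0.717), and 48.8% and 64.4% of cells fell above the threshold. In the deposited counts, with their full range, D was 2.10. With the threshold of that fit after library matching, Ly-6C was on 2.19% of week 0 cells (1.98 to 2.43, 367 cells). At week 1 it was on 7.69% (7.23 to 8.17, 969 cells), a ratio of 3.51. With thresholds fitted in each library at fixed depth, where the gate is merged, Ly-6C was on 57.1% and 57.4%, a ratio of 1.01. In the library-matched form 3 of 11 antibodies (27.3%) differed by the size rule, Ly-6C beside CD3 (1.22% and 7.24%) and Ly-6G (0.645% and 1.40%). The background of Ly-6C moved as well: in CD3-CD90.2+ cells, which are lymphoid, its median was 51 counts at week 0 and 64 at week 1 after matching. The 99th percentile over all cells was 1376 counts at week 0 and 3645 at week 1.

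The shares of the counts need no threshold. Of the deposited counts of kept cells, Ly-6C took 12.1% at week 0 and 25.9% at week 1, while CD90.2 took 57.6% and 45.3%. CD11c took 7.44% and 5.47%, CD103 4.55% and 3.22%, Ly-6G 0.479% and 1.46%, and CD3 0.285% and 0.614%. Ly-6C was second to CD90.2 at both weeks, and its share of the counts at week 1 was 2.13 times that at week 0. These shares depend on each other, because they add up to the total.

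**Figure D2:**
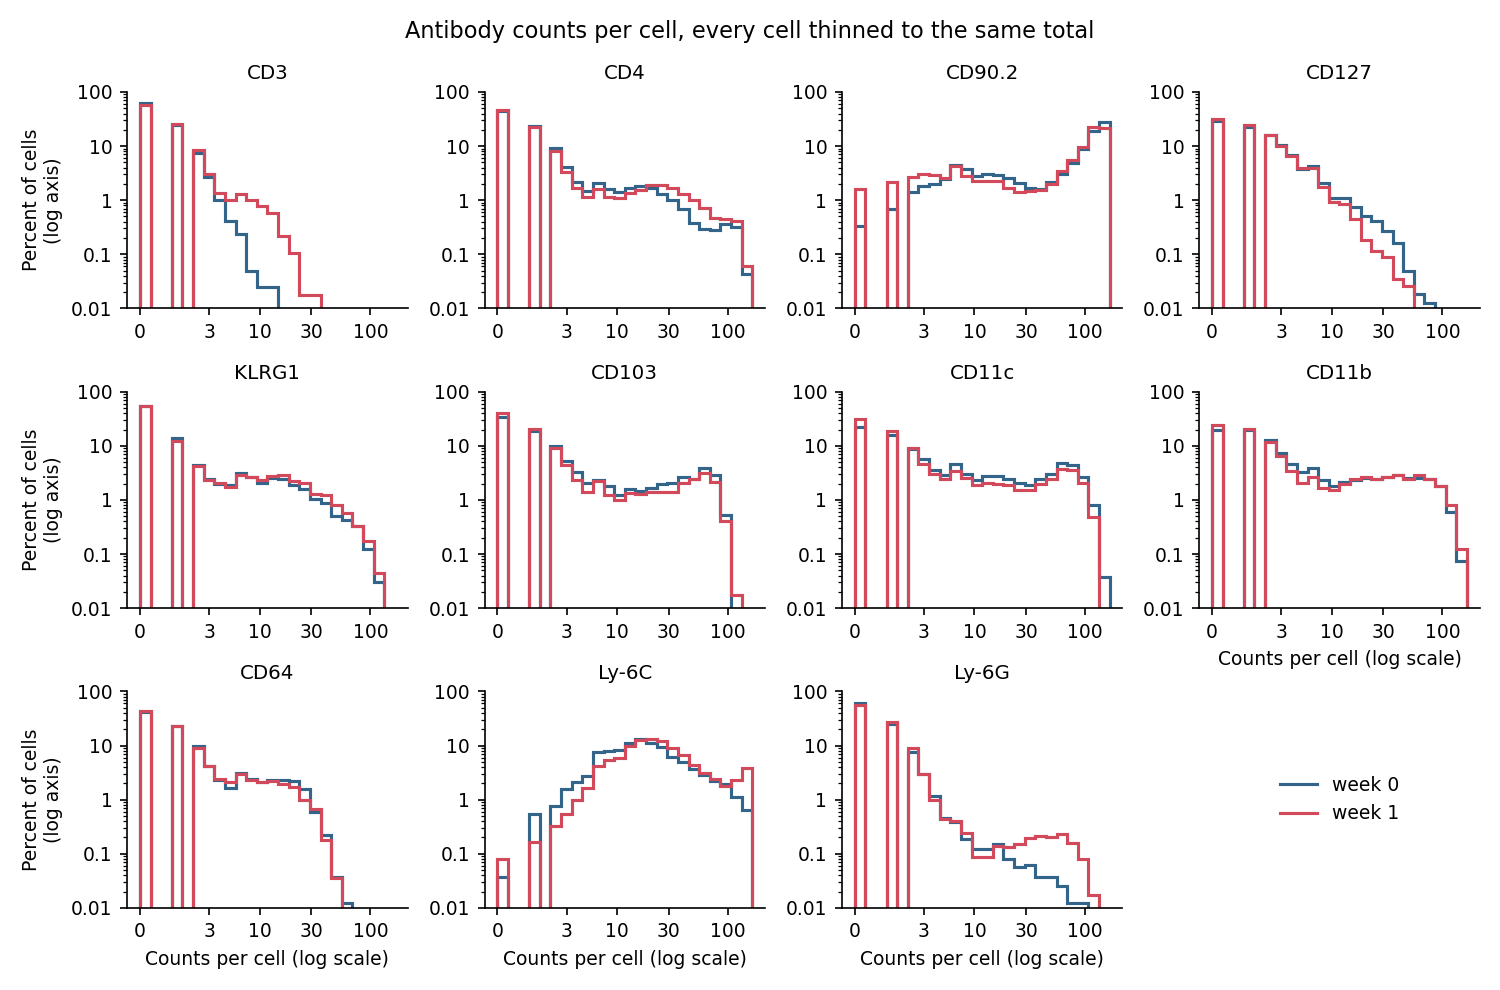
Distribution over cells of the counts of each antibody after every cell was thinned to 164 counts, at week 0 (blue) and week 1 (red); the horizontal axis is counts per cell on a log scale and the vertical axis percent of cells on a log axis. A shoulder of cells above about 5 CD3 counts and one above about 20 Ly-6G counts are seen at week 1 and are smaller at week 0, and the Ly-6C curve has no gap between low and high cells.

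Cells were next placed in 9 exclusive phenotypes by their proteins, and 5 of them (55.6%) differed by the size rule at fixed depth. Helper T cells have the phenotype CD3+CD4+, which took 19 of 16135 cells at week 0 (0.118%, 0.0709 to 0.184) and 576 of 11347 at week 1 (5.08%, 4.68 to 5.50), a ratio of 43.1. The size of this ratio depends on the gate and the depth. Log counts gave 1.47 and thresholds set library by library 1.05, neither past the size rule. It was 1.68 with thresholds fitted on the pair of libraries, and 801 in the deposited counts. After library matching CD3+CD4+ cells were 3 cells at week 0 and 603 at week 1 (4.78%, 4.42 to 5.17). At fixed depth the 19 week 0 cells did not resemble those of week 1 in their other proteins. The 19 had medians of 29 CD90.2, 11 CD11b and 7 CD64 counts, and 9 of them were CD90.2+. The week 1 cells had medians of 106 CD90.2, 1 CD11b and 0 CD64 counts. In the deposited counts 1 barcode of week 0 was CD3+CD4+, and it lay near the week 1 cells in these proteins. It had 66 CD3, 212 CD4 and 719 CD90.2 counts, and the week 1 medians were 47, 176 and 655.

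The T cells of week 1 were nearly all CD90.2+. Of the 603 in the deposited counts, 597 were CD90.2+, 51.1% CD127+ (47.0 to 55.1), 9.29% KLRG1+ (7.09 to 11.9) and 7.79% CD103+ (5.78 to 10.2). At week 2, when the same phenotype made up 39.3% of cells, 28.7% of it was CD127+ (27.7 to 29.6), 30.5% KLRG1+ (29.5 to 31.5) and 4.83% CD103+ (4.38 to 5.32). The T cells of week 1 thus fell above the CD127 gate more often and carried KLRG1 less often than those of week 2. The intervals do not overlap, and no test between pools was made. CD127 counts did not form separate low and high groups (Ashman's D 1.53 in the deposited counts), so the CD127 shares rest on the gate. With both weeks thinned to 164 counts the shares were 42.5% and 24.5% for CD127, and 7.29% and 25.8% for KLRG1. Week 2 is again 1 pool, with a median of 889 counts per cell.

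CD3+CD4- cells were 2.57% at week 0 and 4.04% at week 1 at fixed depth, and 1.20% and 2.45% after library matching. Their barcodes held few counts. In the deposited counts their median was 5 CD3 counts at week 0 and 4 at week 1, on median totals of 189.5 and 187, and 42.5% and 45.6% of them were too shallow for the fixed depth. In a mucosa that should hold no T cells before transfer, the CD3 gate called 2.69% of week 0 cells at fixed depth, 1.22% after library matching and 0.639% in the deposited counts.

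**Figure D3:**
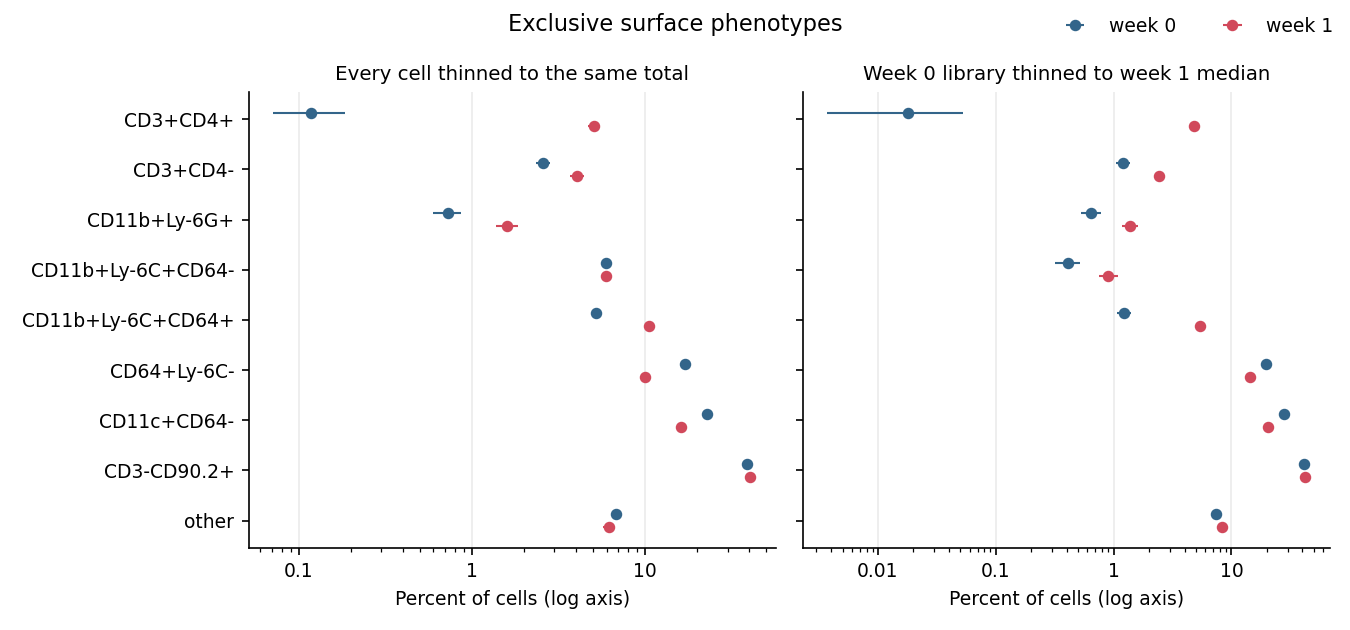
Percent of cells in each of the 9 exclusive phenotypes (log axis) at week 0 (blue) and week 1 (red), at fixed depth on the left and after library matching on the right. Points are shares of 1 pool each, bars exact 95% intervals for counting error; CD3+CD4+ cells show the widest gap in both panels, and the CD11b+Ly-6C+CD64- points meet on the left but not on the right.

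Neutrophils came next. CD11b+Ly-6G+ cells, their phenotype, were 0.725% of cells at week 0 (0.600 to 0.868, 117 cells) and 1.60% at week 1 (1.38 to 1.85, 182 cells), a ratio of 2.21. The week 1 cells also carried more of the protein that defines them. Their median was 39 Ly-6G counts of 164 (quartiles 23 and 60.25), against 17 (12 and 30) at week 0. In the deposited counts the medians were 776 at week 1 and 189 at week 0, while the median totals of these cells, 2277 and 2025, were close. Over all kept cells the median totals were 576.5 and 1090, so the week 1 cells of this phenotype stood higher within their library. Many of these cells had high totals, since 10% of kept week 1 cells lay above 2040.7 counts. At week 0 that point was 3368 counts, above the median total of the week 0 cells of this phenotype. Leaving out the top 10% of each library by total therefore fell more on the week 1 cells. The shares were then 0.582% and 0.873%, a ratio of 1.5 with intervals that overlap.

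Other proteins on CD11b+Ly-6G+ cells differed too. Of the 51 protein and phenotype combinations compared at fixed depth, 9 (17.6%) differed by the size rule, 6 higher (11.8%) and 3 lower (5.88%), and 4 of the 9 lay here. Another random thinning gave 3 of 51, namely Ly-6C and CD64 on these cells and CD4 on CD11b+Ly-6C+CD64+ cells. CD64 was on 20.5% of these cells at week 0 and 45.6% at week 1, and Ly-6C on 17.9% and 52.2%. CD127 was on 36.8% and 18.1%, and CD90.2 on 44.4% and 26.9%. After library matching 5 of 51 combinations (9.8%) differed, 3 higher (5.88%) and 2 lower (3.92%), among them CD64 (15.7% and 49.4%), Ly-6C (1.85% and 14.9%) and CD127 (42.6% and 12.6%) on these cells, with CD90.2 at 47.2% and 36.2%. Median CD64 in this form was 4 counts at week 0 and 62 at week 1, and median Ly-6C 77 and 374.5. Only week 0 counts were thinned in this form, so the week 1 cells of this phenotype also had higher totals. The neutrophil phenotype of week 1 thus held more Ly-6G, more CD64 and more Ly-6C per cell, and fewer of its cells carried the lymphoid protein CD127. Whether shared droplets add to these values was not tested.

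Monocytes with Ly-6C were the other myeloid gain. CD11b+Ly-6C+CD64+ cells, monocytes that already carry the macrophage receptor, were 204 cells at week 0 (1.22%, 1.06 to 1.40) and 679 at week 1 (5.39%, 5.00 to 5.80) after library matching, a ratio of 4.42. Those without CD64 were 0.406% (0.316 to 0.515) and 0.904% (0.747 to 1.09), a ratio of 2.23. With this matching 5 of 9 phenotypes (55.6%) differed by the size rule, all of them higher at week 1. At fixed depth, where the Ly-6C gate is blurred, the shares were 5.21% and 10.5% for the CD64+ group, and 5.99% and 5.98% for the CD64- group. The level of Ly-6C on the CD64+ group was 1460.5 counts at week 0 (quartiles 908.5 and 2212.5) and 1833 at week 1 (999 and 3048).

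CD64+Ly-6C- cells, the phenotype of resident macrophages, were fewer at week 1, by a size that passed the rule only in the form with the merged Ly-6C gate. Their share was 17.1% (16.5 to 17.7) and then 9.98% (9.43 to 10.5) at fixed depth, a ratio of 0.583 that rests on that gate. After library matching, where Ly-6C is readable, it was 19.7% (19.1 to 20.3) and 14.5% (13.9 to 15.1), a ratio of 0.735 that is under the size rule. The share of all CD64+ cells was 21.1% at both weeks in that form. So CD64+ cells kept their share of the sorted cells, while the Ly-6C+ part of them went from 5.87% to 26.6%. These are shares, and cell numbers per colon are not known here.

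The resident macrophages also differed in CD4. Of CD64+ cells, 28.5% were CD4+ at week 0 (27.0 to 30.0) and 15.6% at week 1 (14.3 to 17.1) after library matching, and 27.4% and 15.3% at fixed depth. Ly-6C+ cells, few of which carry CD4, had a larger part in the CD64+ group at week 1. Among CD64+Ly-6C- cells alone CD4 was on 29.8% and 18.0%, past the size rule after library matching. With the merged gate at fixed depth that pair of shares was 31.9% and 22.8%, a ratio of 0.714 that falls short of the rule. CD4 is known as a marker of long-lived gut macrophages. The CD4+ cells of the mucosa had another make-up at week 1: CD64+Ly-6C- cells were 51.7% of all CD4+ cells at week 0 and 19.5% at week 1, CD3+CD4+ cells 0.158% and 35.8%, and CD3-CD90.2+ cells 27.4% and 25.3%.

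Many CD64+ barcodes also carried CD90.2, a lymphoid protein that macrophages are not known for. They were 51.3% of CD64+ cells at week 0 and 37.4% at week 1 after library matching, and 56.1% and 43.1% at fixed depth. Their median deposited totals were 3325 at week 0 and 1904 at week 1, against 1178.5 and 877 for CD64+CD90.2- barcodes, and the part that shared droplets have in them was not tested. The difference in CD4 was larger without them. Among CD64+Ly-6C-CD90.2- cells, 32.7% were CD4+ at week 0 (30.3 to 35.1) and 17.0% at week 1 (14.7 to 19.4), and among CD64+Ly-6C-CD90.2+ cells 27.3% and 19.3%. The CD64+Ly-6C-CD90.2- cells themselves were 9.21% and 8.09% of all cells, a ratio of 0.878, while the CD90.2+ group was 10.5% and 6.40%, a ratio of 0.610. Most of the lower macrophage share at week 1 after library matching thus lay in barcodes that carry CD90.2 as well. With the merged Ly-6C gate of the fixed depth both groups were past the size rule, at 6.27% and 3.91% without CD90.2 (a ratio of 0.624) and 10.8% and 6.06% with it (0.560).

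**Figure D4:**
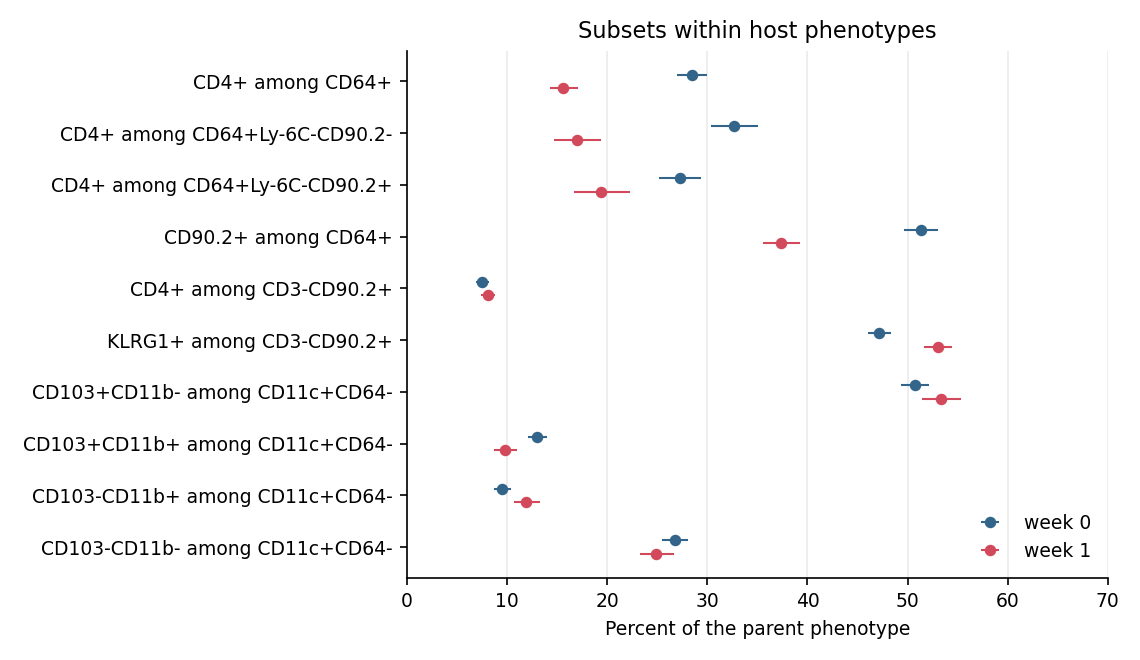
Percent of cells within a host phenotype that carry further proteins at week 0 (blue) and week 1 (red) after library matching, with exact 95% intervals for counting error. CD4+ cells among the CD64+ groups lie lower at week 1, from 28.5% to 15.6% among all CD64+ cells, and KLRG1+ cells among CD3-CD90.2+ cells lie higher.

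Dendritic phenotypes were somewhat fewer at week 1. CD11c+CD64- cells were 22.8% and then 16.2% of cells at fixed depth, a ratio of 0.713, and 28.0% and 20.3% after library matching, a ratio of 0.724. With thresholds fitted in each library the ratio was 1.17. Part of these barcodes carried the lymphoid protein CD90.2 as well, 38.5% at week 0 and 32.7% at week 1 after library matching. CD11c+CD64-CD90.2+ barcodes went from 10.8% to 6.63% of all cells, a ratio of 0.614, and those without CD90.2 from 17.2% to 13.6%, a ratio of 0.793. The lower dendritic share thus lay in both groups, with a difference of -4.16 points in barcodes that carry CD90.2 and -3.57 points in those without it. The part of shared droplets in the CD90.2+ barcodes was not tested. By the textbook subsets, CD103+CD11b- cells were 13.5% and 10.4% of all cells at fixed depth and CD103+CD11b+ cells 2.39% (2.16 to 2.64) and 1.19% (0.998 to 1.41). After library matching the CD103+CD11b+ cells, the double-positive subset typical of the gut lamina propria, were 3.65% and 1.98%. Within CD11c+CD64- cells this subset was 13.03% and 9.78%, and the CD103+CD11b- subset 50.7% and 53.4%. Of the 4 subsets by CD103 and CD11b, the double-positive one had the lowest ratio in both forms (0.497 and 0.543).

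Innate lymphoid phenotypes differed little in share in both forms of depth matching. CD3-CD90.2+ cells without CD11b, CD11c or CD64 were 38.7% and 40.4% at fixed depth and 41.4% and 41.9% after library matching. With thresholds fitted in each library they were 18.6% and 39.7%, a ratio of 2.14. KLRG1 was on 49.6% of them at week 0 (48.4 to 50.9) and 56.0% at week 1 (54.5 to 57.4), and on 47.2% and 53.0% after library matching. KLRG1 is a marker of mature group 2 innate lymphoid cells. Cells with both KLRG1 and CD127 were 39.3% and 45.7% of the phenotype at fixed depth. CD4 was on 8.09% and 9.25%. These CD3-negative CD4+ cells had library-matched medians of 1 CD3 count at each week, 155 and 159.5 CD4 counts, and 820 and 607.5 CD90.2 counts. Lymphoid tissue inducer cells are known to have CD4 without CD3.

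Pairs of proteins repeated these differences and added where the proteins sat. At fixed depth 50 of 55 pairs had at least 50 double-positive cells in a pool, and 21 of the 50 (42%) differed by the size rule. Of these 18 were higher at week 1 (36%) and 3 were lower (6%). CD3, itself on more cells at week 1, was in 9 of the 18, which were all of its compared pairs. Ly-6C was in 6, CD3 with Ly-6C among them, on a gate that is merged at this depth. Its pairs with CD90.2, CD127, CD103 and CD11c did not pass the rule. After library matching 25 of 47 pairs (53.2%) differed, 18 higher (38.3%) and 7 lower (14.9%). Ly-6C was in 7 of the higher pairs in that form. Both forms shared 14 higher and 3 lower pairs.

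**Figure D5:**
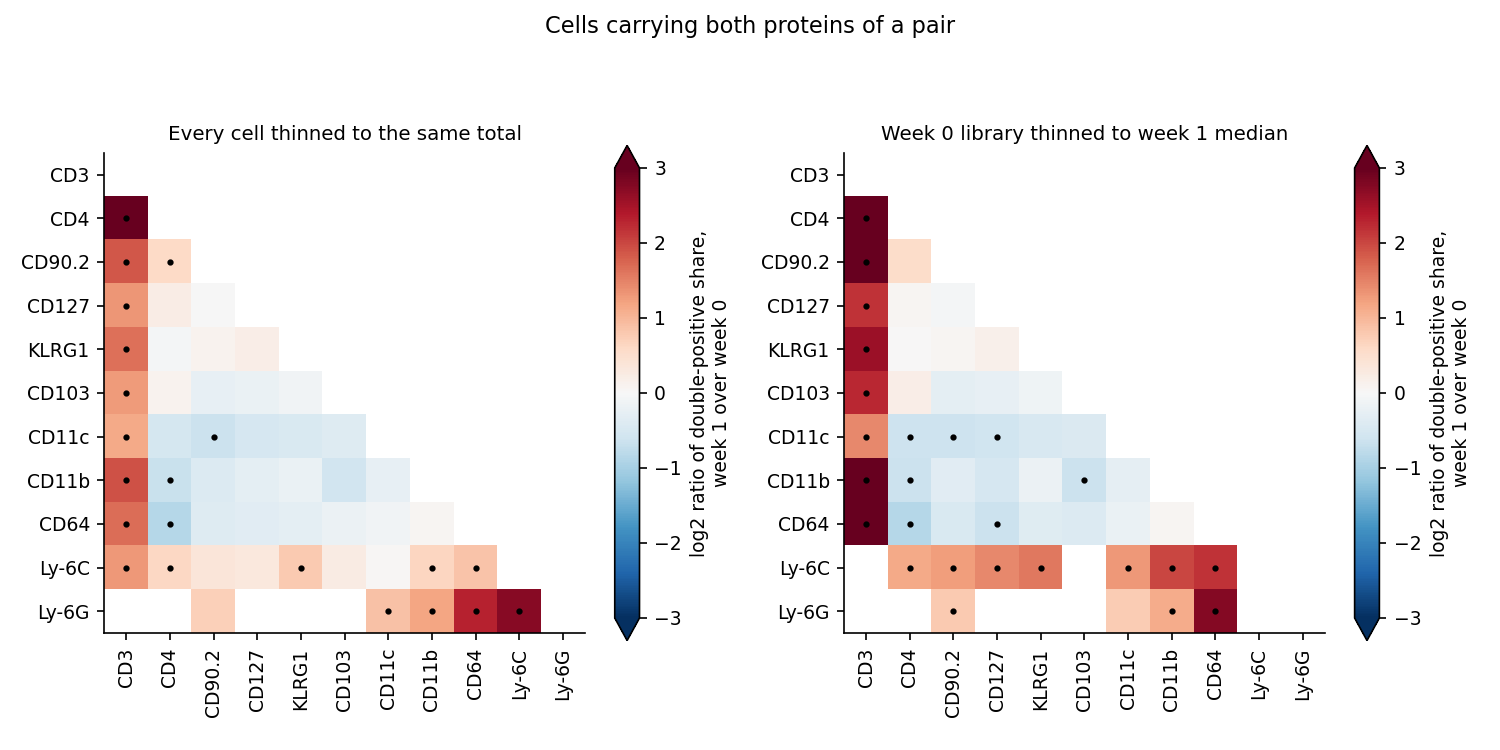
Colour gives the log2 ratio of the share of cells positive for both proteins, week 1 over week 0, at fixed depth on the left and after library matching on the right. Dots mark pairs with a ratio of at least 1.5 either way and separate intervals, blank squares were not compared, and colours stop at 3 either way. The CD3 column and the Ly-6C and Ly-6G rows are mostly red, and CD4 with CD64 or CD11b is blue.

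For CD3 the partner proteins of a T cell stood out. CD3 with CD4 was on 0.118% and 5.08% of cells, and the odds ratio of the proteins, which is 1 when they are independent, was 0.324 at week 0 and 10.5 at week 1. CD3 with CD90.2 was on 2.13% and 7.71%, with odds ratios of 1.77 and 2.89. The week 0 odds ratio of CD3 with CD4 rests on 19 double-positive cells. The Spearman correlation of the CD3 and CD4 counts over the thinned cells was 0.211 at week 0 and 0.286 at week 1. For CD3 and CD90.2 it was -0.270 and -0.154, and 0.139 and 0.174 after library matching. These correlations describe the cells of 1 library each. CD3 with KLRG1 was on 0.366% and 1.15% of cells, with CD127 on 1.85% and 4.64%, and with the myeloid proteins CD11b and CD64 on 0.372% and 1.40%, and on 0.347% and 1.10%. Those pairs, and CD3 with Ly-6C (1.71% and 4.21%), had odds ratios below 1 at week 1, from 0.274 for KLRG1 to 0.701 for CD127.

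CD4 changed partners. CD4 with CD64 was on 6.92% of cells at week 0 and 3.82% at week 1, and the odds ratio was 4.76 and then 1.05. CD4 with CD11b was on 7.23% and 4.57%, with odds ratios of 3.72 and 0.998. CD4 with CD90.2 was on 7.33% and 11.04%, with odds ratios of 0.629 and 1.5. After library matching that pair was on 6.9% and 10.1%, a ratio of 1.46 that missed the size rule. By odds ratio at fixed depth CD4 thus went with CD64 and CD11b before transfer, and with CD90.2 at week 1. After library matching the week 1 odds ratios of CD4 were all above 1. They were 1.27 with CD64 (1.12 to 1.43), 1.14 with CD11b (1.02 to 1.28) and 1.87 with CD90.2 (1.66 to 2.10). Of CD4+ cells at fixed depth, 59.0% were CD90.2+ at week 0 and 74.5% at week 1, against 55.8% and 25.7% CD64+. The Spearman correlation of CD4 and CD90.2 counts was -0.291 and -0.181 at fixed depth, and 0.214 and 0.221 after library matching. For CD4 and CD64 it was 0.378 and 0.174, and 0.550 and 0.423 after library matching. For CD4 and CD11b it was 0.347 and 0.135, and 0.515 and 0.405 after library matching. By correlation CD4 thus stayed closer to CD64 and CD11b than to CD90.2 at both weeks. Among CD3-negative cells CD4 with CD90.2 was on 7.47% and 6.78%, a ratio of 0.907, and CD4 with CD64 on 7.04% and 3.78%, a ratio of 0.537. CD4 with CD11c was on 4.62% and 3.18%, a ratio of 0.689 that missed the size rule at fixed depth and passed it after library matching (0.653).

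Pairs of myeloid proteins showed the same shift in monocytes and neutrophils. After library matching CD11b with Ly-6C was on 1.64% and 6.58% of cells, with odds ratios of 7.97 and 19.5. CD64 with Ly-6C was on 1.24% and 5.59%, with odds ratios of 5.08 and 13.2. At fixed depth, with its blurred Ly-6C gate, these pairs were on 11.5% and 18.1%, and on 7.86% and 14.1%. CD11b with Ly-6G was on 0.731% and 1.66%, and all 118 Ly-6G+ cells of week 0 were CD11b+, against 96.4% at week 1. CD64 with Ly-6G, chosen after its values were seen, was on 0.155% and 0.767%, with odds ratios of 0.806 and 2.47. Ly-6G+ cells carried CD64 in 21.2% of cases before transfer and in 44.6% at week 1.

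Pairs within the resident host lineages differed less. CD11b with CD64 was on 19.3% and 20.2% of cells, with odds ratios of 17.2 and 25.5. CD103 with CD11c was on 19.8% and 15.1%, with odds ratios of 6.52 and 7.24. CD11c with CD11b was on 16.7% and 14.0%, and CD11c with CD64 on 10.3% and 9.47%. In the lymphoid group CD90.2 with CD127 was on 48.7% and 48.4%, CD90.2 with KLRG1 on 27.4% and 29.6%, and CD127 with KLRG1 on 20.8% and 23.9%. None of these 7 pairs reached the size rule in either form.

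CD90.2 with a protein of resident myeloid cells was on fewer cells at week 1. CD90.2 with CD11c was on 13.4% and 8.58% of cells, a ratio of 0.641, with odds ratios of 0.0763 and 0.0800. CD90.2 with CD64 was on 14.2% and 10.8%, with odds ratios of 0.488 and 0.249. The odds ratios were below 1 at both weeks. Week 0 was the more deeply counted library and its table holds more barcodes, and what part shared droplets have in these pairs was not tested. With barcodes positive for both CD64 and CD90.2 left out, CD90.2 with CD11c was on 12.2% and 7.40% of cells.

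The remaining large differences within phenotypes at fixed depth were smaller or rested on the blurred Ly-6C gate. CD4 was on 24.2% of CD11b+Ly-6C+CD64+ cells at week 0 and 9.65% at week 1, and on 9.31% and 4.57% after library matching. KLRG1 on the same cells was 3.81% and 7.47%, but 5.39% and 4.86% after library matching. CD11b was on 12.05% and 22.5% of CD3+CD4- cells and CD64 on 10.6% and 17.9%. CD4 was on 4.98% and 7.82% of CD11c+CD64- cells. None of these 5 passed the size rule after library matching. In that form Ly-6C in CD11c+CD64- cells passed it, on 0.853% and 1.72% of them.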

How the data were processed

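The authors deposited raw counts of 11 antibodies for each barcode, whole numbers without normalization. Seurat 4.1.1, Cell Ranger 6.0.2 and mm10 are listed in the submitters' processing notes. What barcode filter preceded deposit was not given in the sources used here. No doublet caller was run. The part of the series, the gates and the lists were chosen with earlier results of these data known. The threshold of an antibody is the crossing point of a Gaussian mixture with 2 components, fitted on 2000 cells from each of 9 SCID immune libraries together. These libraries include later weeks and the pool treated with anti-IL-12p40. The library-matched form used the thresholds fitted on the deposited counts. Each cell took the first phenotype it met: the CD3+ groups, then neutrophil, monocyte, macrophage, dendritic and CD90.2+ lymphoid gates, then all others. A pair was compared with at least 50 double-positive cells in a pool. All antibodies and phenotypes, the most changed pairs, a fixed list of pairs and the within-phenotype shares past the size rule are named; the subsets of CD64+, dendritic and lymphoid cells, CD90.2 splits included, were added after values were seen. The steps were also run on simulated data made from cells of these libraries, and the outcome is not reported here. Of 64 samples, 55 were not analysed here. Computations used scikit-learn 1.9.0, pandas 2.3.3, scipy 1.17.1 and numpy 2.4.6 under Python 3.11.15.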

Additional observations from a re-analysis of the deposited data

How the results depend on the processing

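Each week is 1 pool, so no replicate could be left out, and nothing here measures the spread between animals. No paired analysis was possible because each week had 1 pool and no test was made. Depth limits Ly-6C most, whose low and high cells were separable in the deposited counts and not at 164 counts; those of CD127 were separable in neither. At fixed depth 2 antibodies, 21 pairs, 5 phenotypes and 9 within-phenotype shares passed the size rule. The antibody count was 0 with log counts, and 1 with thresholds fitted on the pair of libraries, with the top 10% by total left out, or in CD3-negative cells only. The pair count was 4 with log counts, 12 with thresholds of the pair of libraries, 10 in CD3-negative cells and 12 with a ratio of at least 2. The phenotype count was 3 in CD3-negative cells and 3 with a ratio of at least 2. The within-phenotype count was 5 with library matching, with or without shallow barcodes, 5 at 100 counts per cell, 3 with another random seed, 17 with log counts, 23 with thresholds fitted in each library, 5 without the top 10% and 4 with a ratio of at least 2. The 9 within-phenotype calls are therefore the least stable of the results.

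Ratios that turned direction came mostly from thresholds fitted in each library, which called 46.1% of week 0 cells CD3+ and 60.0% Ly-6G+. The ratio was then 0.251 for CD3, 0.0322 for Ly-6G, 0.152 for CD3+CD4- cells, 0.240 for CD11b+Ly-6G+ cells, 1.68 for CD64+Ly-6C- cells and 0.770 for CD64 in CD11b+Ly-6G+ cells. Among pairs it was 0.203 for CD3/CD11b, 0.294 for CD3/CD90.2, 0.173 for CD3/CD64, 0.149 for CD3/KLRG1, 0.197 for CD3/CD127, 0.192 for CD3/Ly-6C and 0.161 for CD11b/Ly-6G. With log counts, which called 36.8% of week 0 cells CD3+, it was 0.941 for CD3/CD11b, 0.95 for CD3/CD64, 0.991 for CD11b/Ly-6G, 0.866 for KLRG1 in CD11b+Ly-6C+CD64+ cells, 0.965 for CD11b and 0.957 for CD64 in CD3+CD4- cells. KLRG1 in CD11b+Ly-6C+CD64+ cells had a ratio of 0.703 in the deposited counts and 0.901 with library matching, with or without shallow barcodes, and CD4/CD90.2 had 0.907 in CD3-negative cells. Beyond the thresholds named, the cause was not tested. The ratio of CD4/CD64 stayed below 0.7 in each alternative, from 0.5 without barcodes carrying CD64 and CD90.2 to 0.659 with log counts. Leaving out those barcodes, and the library matching without shallow barcodes, were chosen after seeing the data.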
